A study of Capra hircus with 3 samples.

Results

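The cytoplasmic ribosomal protein genes were followed in single cells of fetal goat skin at 3 stages. The set holds every gene of the expression table whose symbol is RPL or RPS with a number and at most a short suffix, or RPLP0 to RPLP2 or RPSA. This rule took 31 of the 16739 genes, 16 of the large subunit and 15 of the small subunit, and used no measured value. RefSeq's goat gene list (assembly ARS1.2) has 80 symbols of this form, 30 of the 31 genes among them. RPL34 was not found there by symbol, and 50 of the 80 symbols do not stand in the table under their name. The table also has 4030 rows with only an Ensembl identifier, which could not be named and may hold further ribosomal protein genes. All summed shares below are therefore shares of the 31 named genes and not of the whole ribosomal protein set.

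Dorsal skin came from fetuses of the Northern Shaanxi White Cashmere goat at embryonic day 60 (E60), 90 (E90) and 120 (E120), when hair follicles are induced, built and differentiated. Each stage gave a single library (1 per stage) of the 10x Genomics 3′ version 3 chemistry, which counts transcripts by unique molecular identifiers (UMIs). Cells of at least 2 fetuses were prepared separately and pooled before barcoding, so no stage has a replicate and no test between stages was possible. E60 and E90 were whole skin dissociated with collagenase IV and a pipette, whereas E120 was follicles picked out of collagenase-treated skin and dissociated with TrypLE, so stage and preparation cannot be told apart. No genotype or treatment separates the groups.

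Ribosomal proteins assemble with ribosomal RNA in the nucleolus into the large and small subunits, which join on mRNA and make protein. Their mRNAs are among the most abundant of most cells and begin with a tract of pyrimidines, through which growth signals set how much of each mRNA is translated. In the follicle, matrix cells divide and then fill the hair shaft and the inner root sheath with keratins and other structural proteins, around a papilla of specialised fibroblasts that seldom divide.

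The libraries held 6849, 6931 and 6896 cells with medians of 8579, 3714 and 13064 UMIs per cell at E60, E90 and E120. The table has 20676 cells in all, against 19705 in the design text. Between 9 and 13 cell barcodes were shared by any pair of libraries. Mitochondrially encoded transcripts took 4.78, 11.9 and 5.70% of the UMIs, in the same order. Summed over 10 epithelial marker genes (KRT5, KRT14 and others), E60 had 5.03, E90 had 5243 and E120 had 1790 UMIs per 1000000 (CPM), so the E60 library held next to no epithelium. The 9 dermal fibroblast markers summed to 13255, 3972 and 496 CPM, and 11 hair shaft markers to 63.6, 140 and 15208 CPM. E60 was thus mostly mesenchyme, E90 mixed, and E120 mostly follicle epithelium. Cell classes were rebuilt by clustering each library without the 31 genes, and are called by the marker genes they resembled. Of 67 clusters, 48 received a name. Cells in unnamed clusters were 40.5, 30.0 and 28.7% of the libraries.

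The 31 genes together gave 16.6% of the UMIs of the E60 library. In E90 they gave 14.6%, and in E120 18.1%. Exact binomial 95% intervals, which cover counting error only, ran from 16.63 to 16.65%, from 14.54 to 14.56% and from 18.06 to 18.08%. Per cell, the median share was 16.9%, 14.4% and 18.3%. E60 had quartiles of 15.3 and 18.3%, E90 of 13.5 and 15.4%, and E120 of 16.3 and 19.8%. The ranges between the quartiles of E90 and E120 thus did not overlap, while those of E60 and E120 did. In UMIs, the median cell held 1479, 544 and 2399 ribosomal protein UMIs, in step with the depth of the libraries, so the number of such mRNAs per cell cannot be told apart from capture.

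Cells differed more than counting noise gives. The standard deviation of the share over cells was 2.47, 1.74 and 3.60 percentage points at E60, E90 and E120, against 0.397, 0.561 and 0.420 points from counting alone. When every cell was thinned to 2000 UMIs, the median shares were 16.9%, 14.4% and 18.2%, the same order. Within E120, split at the quartiles of depth, the shallowest cells had a pooled share of 15.9%, against 17.9 to 18.5% in the other groups. Within E60, the deepest cells were lowest, at 15.9% against 16.9 to 17.2%. Within E90, the groups lay between 14.5 and 14.6%.

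The log2 ratio of the pooled share was -0.19 for E90 over E60, 0.31 for E120 over E90 and 0.12 for E120 over E60. E90 is the shared term of the first pair of ratios, so these are not independent. With mitochondrial and haemoglobin UMIs left out of the denominator, the shares were 17.5%, 16.6% and 19.2%, and the ratios were -0.08, 0.21 and 0.13. With equal weight to each cell class that both libraries held, the ratios were -0.08 over 4 classes, 0.11 over 7 classes and 0.02 over 5 classes. All kept their sign, but the mix of classes and the mitochondrial share moved with them. The 0.02 came from classes that went both ways, from -0.24 in dermal-fibroblast-like cells to 0.25 in G2 or mitosis clusters.

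At a limit of 2-fold in CPM, individual genes moved little against the rest of the transcriptome. Of the 31 genes, 30 reached 10 CPM and entered the comparison of stages by the log2 ratio of CPM + 1. None of the 30 differed by 2-fold in any pair of stages. Over all genes tested, 21.3% were at least 2-fold higher and 8.08% at least 2-fold lower at E90 than at E60. From E90 to E120 the figures were 9.99% and 24.2%, and from E60 to E120 19.4% and 21.5%. At 1.5-fold, 2 of 30 genes were lower at E90 than at E60, against 16.8% of all genes, and none was higher, against 33.7%. At E120, 6 of 30 were higher than at E90, near the share of all genes (19.6%), and none was lower (36.9%). Between E60 and E120, 4 were higher (30.3%) and 1 was lower (29.7%). The median log2 ratio of the 30 genes was -0.15 for E90 over E60, 0.28 for E120 over E90 and 0.08 for E120 over E60, against 0.13, -0.24 and 0.02 over all genes tested. With a limit of 100 CPM in place of 10 CPM, the medians over all genes were -0.26, 0.21 and 0.03. The opposite signs for E90 over E60 and for E120 over E90 thus depended on the filter for low values.

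**Figure D1:**
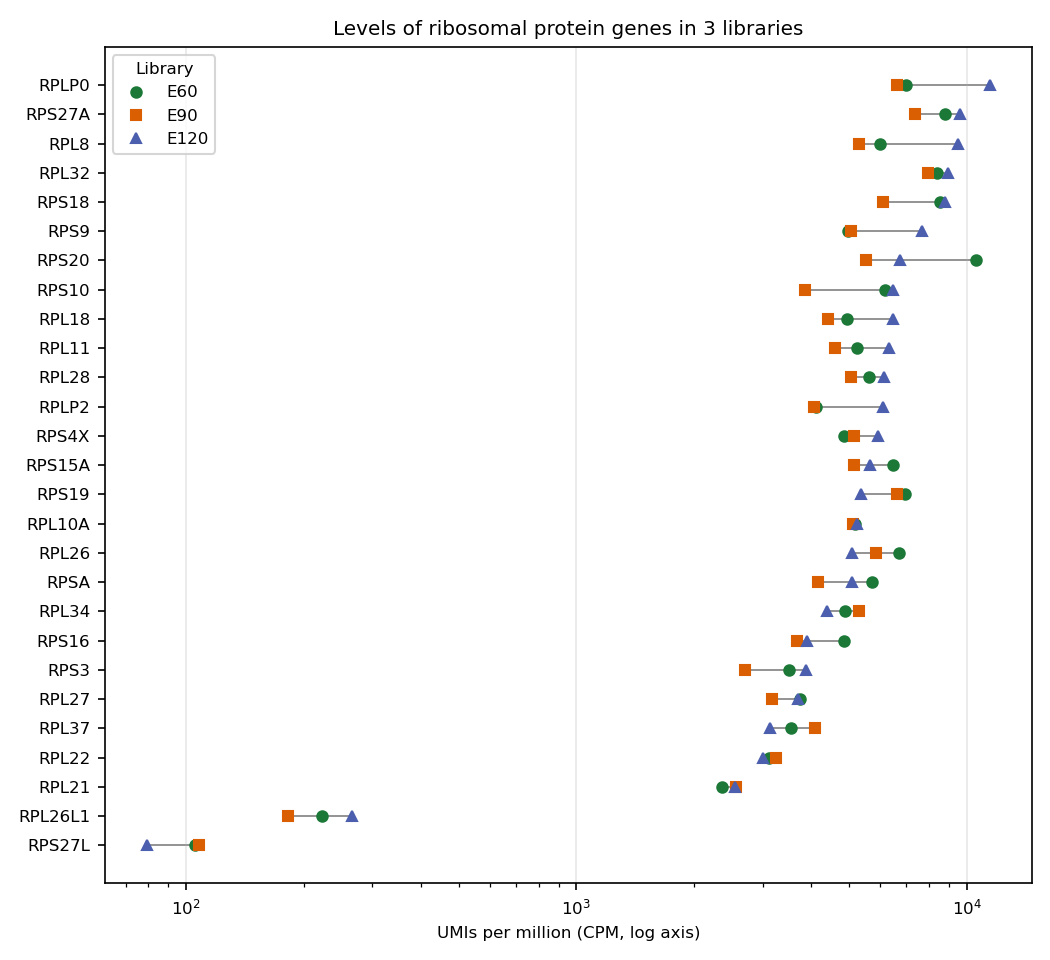
Level of single genes in the 3 libraries, in UMIs per 1000000 (CPM) on a log axis, 1 symbol per library and a grey line over its range; RPL3L, at 4 to 13 UMIs, is left out. RPS20 stands apart to the right at E60, RPLP0, RPL8, RPS9 and RPLP2 at E120, and RPL26L1 and RPS27L lie far below the rest.

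Scaling matters to these counts. Median-of-ratios scaling over the other genes moved the median of all genes from 0.13 to -0.02 for E90 over E60 and from -0.24 to 0.03 for E120 over E90. The 31 genes then had medians of -0.28 and 0.54, with 1 gene at least 2-fold lower at E90 and 3 at least 2-fold higher at E120. Without mitochondrial and haemoglobin UMIs, 15 of the 31 genes were above 0 and 16 below for E90 over E60, where 8 and 23 were in the CPM of all genes. The direction of single genes close to 0 in that comparison therefore depends on the scaling.

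The stalk of the large subunit, which recruits elongation factors, is built on RPLP0 with RPLP1 and RPLP2, and RPLP0 and RPLP2 were in the table. RPLP0 was at 6987 CPM in E60, 6643 CPM in E90 and 11455 CPM in E120, thus 1.72-fold higher in E120 than in E90 and similar at the earlier stages. RPLP2 was at 4107, 4067 and 6116 CPM, the same order. Within cell classes, RPLP0 was higher at E120 than at E60 in 5 of 5 shared classes, with log2 ratios from 0.02 in dermal-fibroblast-like cells to 0.80 in G2 or mitosis clusters. Against E90 it was higher in 6 of 7 classes and lower in suprabasal-like cells (-0.18).

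Other large-subunit genes went both ways. RPL8, a core protein near the peptidyl transferase centre, was at 6008, 5280 and 9489 CPM, and was higher at E120 than at E90 in 7 of 7 shared classes, by 0.15 to 0.81 on the log2 scale. RPL18 was at 4934, 4415 and 6464 CPM and was also higher in 7 of 7 classes. RPL37 showed the opposite order, with 3546, 4075 and 3127 CPM. It was higher at E90 than at E60 in 4 of 4 classes (log2 0.16 to 0.39) and lower at E120 than at E90 in 7 of 7 (-0.53 to -0.20). RPL34, at 4878, 5280 and 4396 CPM, followed RPL37 in all of these classes. RPL26 was at 6690, 5861 and 5086 CPM and was lower at E120 than at E60 in 5 of 5 classes. RPL22, at 3117, 3241 and 3007 CPM, was nearly level over whole libraries, but was lower at E120 than at E90 in 7 of 7 classes (-0.26 to -0.06) and higher at E90 than at E60 in 3 of 4. RPL21 was at 2362, 2570 and 2553 CPM.

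Among small-subunit genes, RPS20, a protein of the subunit's head, had the widest range. It was at 10574 CPM in E60, 5517 CPM in E90 and 6748 CPM in E120, which is 1.92-fold lower at E90 and 1.57-fold lower at E120 than at E60. It was lower at E90 in 4 of 4 classes shared with E60, by -0.95 in dermal-fibroblast-like cells and by -0.39 in endothelial-like cells. It was lower at E120 in 5 of 5 classes, from -1.04 in dermal-fibroblast-like cells to -0.06 in endothelial-like cells. The difference was thus widest in dermal-fibroblast-like cells and narrowest in endothelial-like cells in both comparisons.

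RPS10 was lowest at E90, with 6170, 3850 and 6484 CPM, and was below E60 in 4 of 4 classes. RPS9 was at 4965, 5060 and 7689 CPM, level between E60 and E90 and 1.52-fold higher at E120 than at E90. It was above E90 in 7 of 7 classes, although by only 0.04 in the lowest class. RPS19, needed for maturation of the small subunit's RNA, was at 6928, 6612 and 5366 CPM and was lower at E120 than at E90 in 7 of 7 classes. RPSA, which is also known as a laminin receptor, was at 5700, 4151 and 5084 CPM. RPS18 had 8536, 6103 and 8810 CPM, and RPS16 had 4844, 3673 and 3903 CPM. RPS4X, the X-linked form of RPS4, was at 4858, 5138 and 5934 CPM. All of these are tag counts at the 3′ end and not per length, and the counting of reads that match several near-identical copies is not given in the sources used here, so levels of different genes are not ranked further.

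In all, 3 genes are copies of a canonical ribosomal protein gene. For RPL26L1, E60 had 222 CPM (exact Poisson 95% interval 219 to 226), E90 had 183 CPM (178 to 188) and E120 had 267 CPM (264 to 270). The UMIs of RPL26 outnumbered its own 30.1, 32.0 and 19.1 times. RPS27L, a p53-responsive relative of RPS27, was at 105 CPM (103 to 108), 108 CPM (105 to 112) and 79.4 CPM (77.6 to 81.2). RPL3L, the RPL3 form of heart and skeletal muscle, had 13, 7 and 4 UMIs in whole libraries, in 0.175%, 0.101% and 0.058% of cells, and a level this near 0 carries no comparison. RPL3 and RPS27 are not in the table under their symbols.

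**Figure D2:**
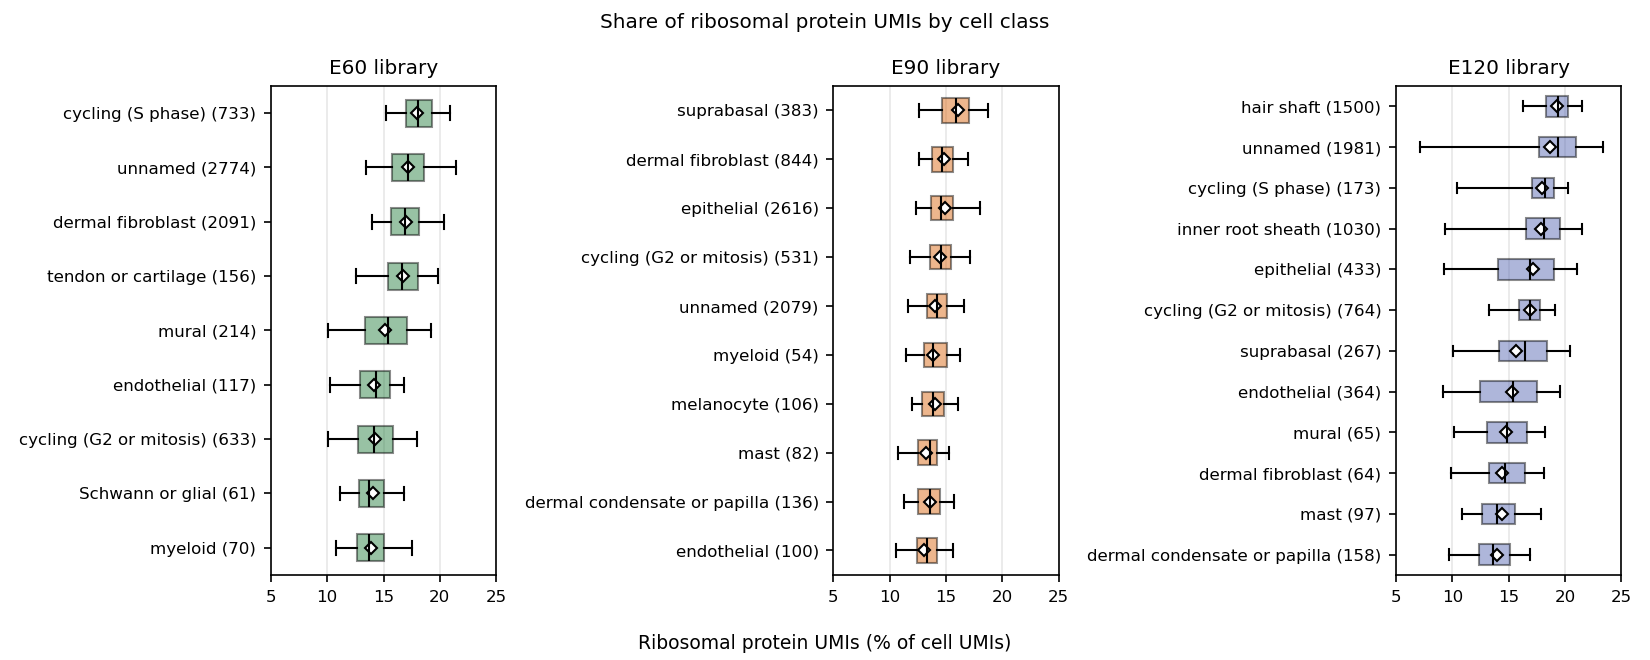
Share of ribosomal protein UMIs per cell in each class of each library (number of cells in brackets). Boxes are quartiles with the median as a line, whiskers the 5th and 95th percentiles, and white diamonds the pooled share. G2 or mitosis clusters lie low at E60 and not at E90, and papilla-like cells lie lowest at E120.

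Among the named classes the highest pooled share was that of hair-shaft-like cells at E120, at 19.3% in 1500 cells, against 17.5% in the other E120 cells. The per-cell quartiles were 18.3 and 20.3%, and 15.9% of the shaft-like cells lay below the median of the others. The log2 ratio was 0.13, and 27 of the 30 genes tested were above 0, with a median of 0.12 against -0.26 for all genes. None was 1.5-fold higher (6.50% of all genes were) and 1, RPS27L, was 1.5-fold lower (30.9% were). RPS20 was at 7776 CPM in shaft-like and 6293 CPM in other cells, and RPLP0 at 12884 and 10823 CPM. RPL26L1 stood against these at 220 and 287 CPM. The mitochondrial share was nearly equal, 5.75% and 5.67%. The 11 shaft markers summed to 36558 CPM in these cells and 5765 CPM in the others, with 9 of 11 higher. Stress and dissociation genes summed to 6960 CPM against 11470 CPM, and their part in the result was not tested. A high share was not particular to shaft-like cells, whose clusters had 19.5, 18.7 and 19.2%. Cluster 1 of E120 (642 cells), unnamed and led by KITLG and ALDH1A3, had 19.8%. Its mitochondrial share was 6.43% and its median depth 10646 UMIs.

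Inner-root-sheath-like cells, the other keratinising class, had 17.8% in 1030 cells, against 18.1% in the rest of E120, with 9 genes above 0 and 21 below and none 1.5-fold apart in either direction (5.88% of all genes higher, 16.9% lower). Among genes of at least 100 CPM, RPLP2 was the highest against other cells, at 6564 and 6012 CPM, and RPL37 the lowest, at 2796 and 3204 CPM. The quartiles of sheath-like cells were 16.5 and 19.5%, which overlapped those of shaft-like cells.

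In G2 or mitosis clusters the share was lower than in other cells at E60 and E120 and nearly equal at E90. At E60 it was 14.2% in 633 cells against 17.0%, a log2 ratio of -0.26, and 88.6% of the cells lay below the median of the others. At E120 it was 16.9% in 764 cells against 18.3% (-0.11), with 89.1% below, and the ratio was -0.06 with coarser clusters (Leiden resolution 0.5). At E90 it was 14.5% in 531 cells against 14.6% (-0.01), with 47.8% below. The sign at E90 changed with the settings, so no direction is given there. The differences between the stages could not be tested with 1 library each. Mitochondrial shares in these clusters and in other cells were 4.66 and 4.79% in E60. E90 had 10.3 and 12.0%, and E120 had 5.67 and 5.70%. Stress and dissociation genes summed to 13232 CPM in these clusters and 9810 CPM in other cells of E60, and to 13531 and 9546 CPM in E120, and their part in the result was not tested. The clusters had medians of 11531, 3776 and 16481 UMIs per cell at E60, E90 and E120. Whole libraries had 8579, 3714 and 13064 UMIs, and the part of depth was not tested. Other cells included unnamed clusters.

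All 30 genes but RPL26L1 were below 0 in the E60 clusters, with a median of -0.26 against 0.12 for all genes. RPL10A was the lowest, at 3536 CPM against 5388 CPM, the only gene at least 1.5-fold lower (7.56% of all genes were). RPS4X was at 3587 against 5025 CPM and RPL22 at 2303 against 3224 CPM, while RPSA (5377 against 5743 CPM) was closer to 0. At E120, 27 genes were below 0 and RPLP0 (9608 against 11746 CPM), RPS20 (5703 against 6913 CPM) and RPL37 (2643 against 3203 CPM) were lowest. None of these was 1.5-fold lower (9.54% of all genes). At E90, 15 were above and 15 below, with none 1.5-fold lower (4.81%).

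RPL26L1 had the highest ratio of the 30 genes in every library. It was at 327 CPM in G2 or mitosis clusters and 209 CPM in other cells in E60. The values were 226 and 179 CPM in E90, and 394 and 247 CPM in E120. Log2 ratios were 0.65, 0.33 and 0.67. It was the only gene at least 1.5-fold higher, at E60 (15.8% of all genes) and E120 (17.0%), and there was none at E90 (7.70%). In each library these clusters had its highest level of any class, while its parent gene RPL26 was lower than in other cells, with 5284 against 6875 CPM in E60, 5467 against 5894 CPM in E90 and 4671 against 5152 CPM in E120.

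**Figure D3:**
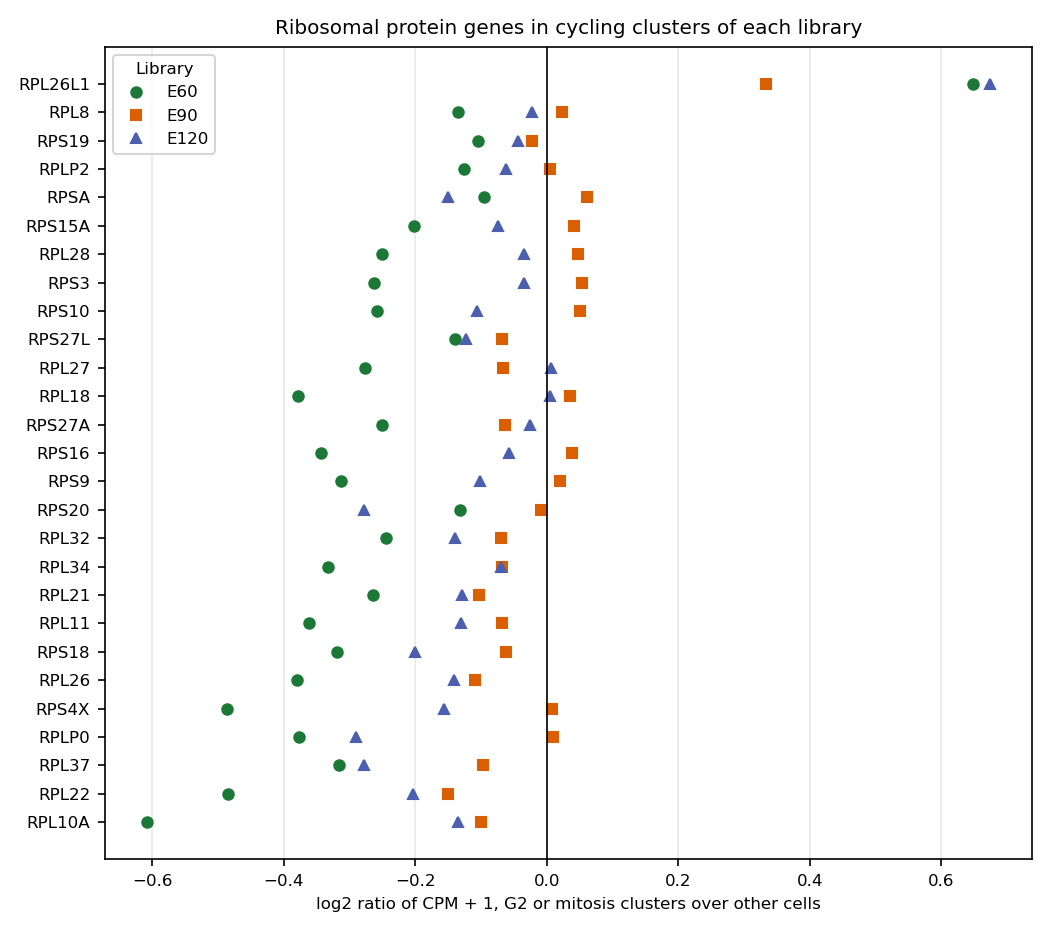
Log2 ratio of CPM + 1 of single genes in G2 or mitosis clusters over all other cells, 1 symbol per library. RPL26L1 is alone at the right for E60 and E120 (0.65 and 0.67), the other E60 points lie left of 0, and E90 points gather around 0.

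A split by the mitotic transcripts of single cells used no clusters. It put the cells with the most such transcripts lowest in each library, but the groups lay close together at E90, where the clusters gave no direction. Cells were split by their UMIs of the G2 or mitosis list after thinning to 2000 UMIs, and shares were taken at full depth. E60 cells with 0, 1 and 2 or more such UMIs had pooled shares of 17.2%, 16.9% and 14.7% (4867, 750 and 1232 cells). At E120 they were 18.5%, 18.2% and 17.0% (4577, 784 and 1535 cells), and at E90 14.8%, 14.5% and 14.3% (2702, 2105 and 2124 cells). E90 had such UMIs in far more cells than the 531 of its cluster, and 14 markers of this list summed to 475 CPM outside it, against 2835 CPM inside. The sums inside and outside were 7334 and 377 CPM in E60, and 3377 and 423 CPM in E120. The contrast between cycling and other cells was thus narrower at E90, and whether free RNA contributes was not tested. Within inner-root-sheath-like cells of E120, those with 0 mitotic UMIs had 18.1% and those with 2 or more 16.9%. In endothelial-like cells of E120 the values were 15.5 and 14.4%, the latter in 29 cells. At E90 they were 15.2 and 14.5% in epithelial-like cells, 14.9 and 14.6% in dermal-fibroblast-like cells, and 13.0% in both groups of endothelial-like cells. E60 dermal-fibroblast-like cells had 17.1 and 16.1%, the latter in 30 cells.

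The named S phase clusters did not share the low values. They had 18.0% at E60 (733 cells), against 16.4% in other cells, and 17.9% at E120 (173 cells), against 18.1%. Among the named classes of E60, the S phase class was thus the highest and the G2 or mitosis class near the bottom. The E60 S phase class was made of 2 clusters with 17.2 and 19.3%, and DKK1 and ISM1 were among the leading genes of the second. The 3 G2 or mitosis clusters of E60 had 15.6, 13.7 and 12.0%. Cluster 7 of E60 (301 cells) had 15.5%. It received no name, although HIST1H1A, HIST1H1B and CLSPN, the last from the S phase list, were among its leading genes. The contrast between S phase and G2 or mitosis therefore holds for the named clusters only.

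Papilla-like cells had the lowest share of any named class at E120. It was 14.0% in 158 cells, against 18.1% in other cells, a log2 ratio of -0.38, and 96.8% of the cells lay below the median of the others. They had fewer UMIs (median 6020) and less mitochondrial RNA (3.46% against 5.72%), and the share without mitochondrial and haemoglobin UMIs was 14.5%. Of the 13 papilla markers, 12 were higher than in other cells and CORIN was at 0, and the summed level was 9115 against 48.2 CPM. Of 30 genes, 28 were below 0, with a median of -0.34 against 0.22 for all genes. Of the 30, 5 were at least 1.5-fold lower (22.1% of all genes) and none higher (38.5%). RPLP0 was at 6060 CPM against 11522 CPM, RPS9 at 4362 against 7730 CPM and RPL28 at 3783 against 6159 CPM, with RPLP2 and RPS10 the others. RPL26 (5550 against 5081 CPM) and RPL21 (2638 against 2552 CPM) were above 0. Stress and dissociation genes summed to 16828 CPM against 10004 CPM, and their part in the result was not tested.

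The papilla-like value was not alone among stromal and blood-derived classes of E120. Dermal-fibroblast-like (64 cells) and mast-cell-like cells (97 cells) both had 14.4%, mural-like cells (65 cells) 14.8% and endothelial-like cells (364 cells) 15.3%. All of these lay below the shaft-like, sheath-like, epithelial-like and cycling classes of E120, which had 16.9 to 19.3%. The lower classes were also shallower, with medians of 3686 to 6404 UMIs per cell, against 13107 to 18729 UMIs in the higher ones. The part of depth in this order was not tested. The epithelial-like class was not uniform, and its cluster 17 (156 cells), with KRT14, KRT5 and SOX9 among its leading genes, had 15.1%, below endothelial-like cells, while its cluster 10 (277 cells) had 17.7%. Their median depths were 6602 and 18729 UMIs. At E90 papilla-like cells (136 cells) had 13.6% against 14.6% in other cells, with 22 of 30 genes below 0 and none past 1.5-fold (35.2% of all genes higher, 13.1% lower). RPS27L (72.8 against 109 CPM) and RPL28 (3590 against 5084 CPM) were lowest and RPS3 (3165 against 2697 CPM) highest. CORIN and RSPO2 were at 0 in this class, and its 13 markers summed to 777 CPM against 104 CPM in other cells, a weaker resemblance than at E120.

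Suprabasal-like cells, the layers above the basal epidermis, had the highest class share at E90, at 16.0% in 383 cells against 14.5% (log2 0.15). Their mitochondrial share was 6.62% against 12.2%, and without mitochondrial and haemoglobin UMIs the ratio was 0.06. RPS20 was at 8166 CPM against 5353 CPM, the only gene at least 1.5-fold higher (10.8% of all genes), and none was lower (18.3%). RPLP0 was at 8620 against 6520 CPM. RPL26L1, RPL18 and RPL10A were lowest, with RPL26L1 at 153 against 185 CPM. The suprabasal-like clusters were not uniform, with 16.6, 15.8 and 12.9% in 269, 64 and 50 cells. Cluster 4 of the epithelial-like class of E90 (429 cells) had 16.9%, above each of them, so a high share was not particular to suprabasal-like cells.

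At E120, suprabasal-like cells lay on the other side of their library, at 15.6% in 267 cells against 18.1%. RPLP0 (7631 against 11516 CPM), RPLP2 (4044 against 6149 CPM) and RPS10 (4225 against 6519 CPM) were at least 1.5-fold lower (20.0% of all genes), and none was higher (29.2%). RPS19 (6506 against 5348 CPM) was above 0. These cells had a median of 3941 UMIs, and stress and dissociation genes summed to 23296 CPM against 9878 CPM, whose part was not tested. The suprabasal-like classes of the 2 stages differed in their markers. The 8 suprabasal markers summed to 25441 CPM at E90 and 12265 CPM at E120, and the 10 epithelial markers to 7255 and 20622 CPM. Tendon or cartilage markers summed to 801 CPM in the E120 class, against 26.2 CPM in other cells. Only 2 of the 6 were higher than in other cells, and TNMD, SCX and MKX were at 0, so the sum does not show a tendon or cartilage character. The shares of these classes, 16.0 and 15.6%, are therefore not a comparison of one cell type between stages.

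Set side by side over stages, with classes rebuilt separately in each library, endothelial-like cells had 14.1, 13.0 and 15.3% and G2 or mitosis clusters 14.2, 14.5 and 16.9% at E60, E90 and E120. Dermal-fibroblast-like cells had 17.0, 14.8 and 14.4%, the reverse of the whole libraries at E120. They may not be one cell type over stages. The E60 clusters resembled fibroblasts only against the clusters of all libraries, with no marker among their leading genes. The E120 class was a single cluster of 64 cells, led by COL1A2, COL1A1, COL11A1 and ACTA2 among others. Epithelial-like cells had 14.9% at E90 and 17.2% at E120, papilla-like cells 13.6 and 14.0%, and mast-cell-like cells 13.2 and 14.4%. Myeloid-like cells had 13.9% at both E60 and E90, and mural-like cells 15.1% at E60 and 14.8% at E120. The order of the whole libraries therefore did not hold in each class. The G2 or mitosis clusters of different stages were not one cell type. The 9 dermal fibroblast markers summed to 10979 CPM in those of E60, 3020 CPM in those of E90 and 718 CPM in those of E120.

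**Figure D4:**
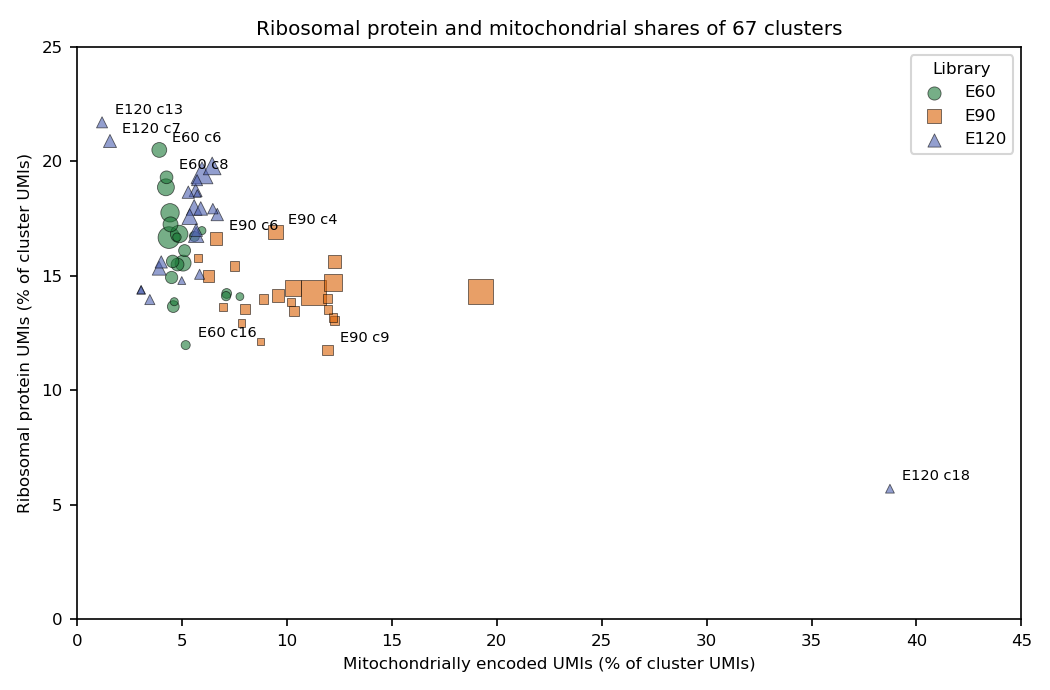
Ribosomal protein share against mitochondrial share of 67 clusters, in percent of cluster UMIs, with symbol area by number of cells and 1 symbol per library; c is the cluster number. E120 cluster 18 lies apart at 38.7% mitochondrial and 5.70% ribosomal protein UMIs, and E120 clusters 7 and 13 at the opposite corner.

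Single clusters spanned a wider range than classes. At E120 the range was 5.70 to 21.7%, at E60 12.0 to 20.5% and at E90 11.8 to 16.9%. The lowest E120 cluster, cluster 18, had 100 cells, a median of 3347 UMIs and 38.7% mitochondrial UMIs. HEPHL1, DSG4 and mitochondrial genes led it. The highest E120 clusters, 13 and 7 (204 and 314 cells), had 21.7 and 20.9%, with 1.18 and 1.56% mitochondrial UMIs and medians of 3580 and 3299 UMIs. Cluster 13 shared leading genes KRT23, S100A8, SERPINB13 and CNFN with cluster 10, which had 17.7%, 6.67% mitochondrial UMIs and a median of 18729 UMIs. Globin genes led cluster 7. At both ends the mitochondrial share moved against the ribosomal protein share, in shallow cells, and its part was not tested.

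At E60, where the mitochondrial share of most clusters lay close together, clusters still differed. Cluster 6, which received no name and was led by ISM1, CXCL14 and BMP4, had 20.5%. Of the dermal-fibroblast-like clusters, cluster 3, with DKK1 and CXCL14, had 18.9% and cluster 4, led by SEMA3C and SMOC2, had 15.6%. Mitochondrial shares were 3.91, 4.22 and 5.04%, and median depths 7119, 7691 and 7634 UMIs. Cluster 10, also unnamed and led by the cholesterol synthesis gene HMGCS1 among others, had 14.9% at 4.50% mitochondrial UMIs. At E90 the highest was cluster 4, of the epithelial-like class, with COL17A1 and IGFBP6, at 16.9%. The lowest was cluster 9, led by globin genes, at 11.8%. Across cells, the correlation of the ribosomal protein share with the mitochondrial share was -0.37, -0.25 and -0.61 in E60, E90 and E120 (6849, 6931 and 6896 cells). Both shares have the same denominator. With mitochondrial UMIs taken out of it, the values were -0.29, 0.26 and -0.47, so the sign at E90 turned with the denominator.

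**Figure D5:**
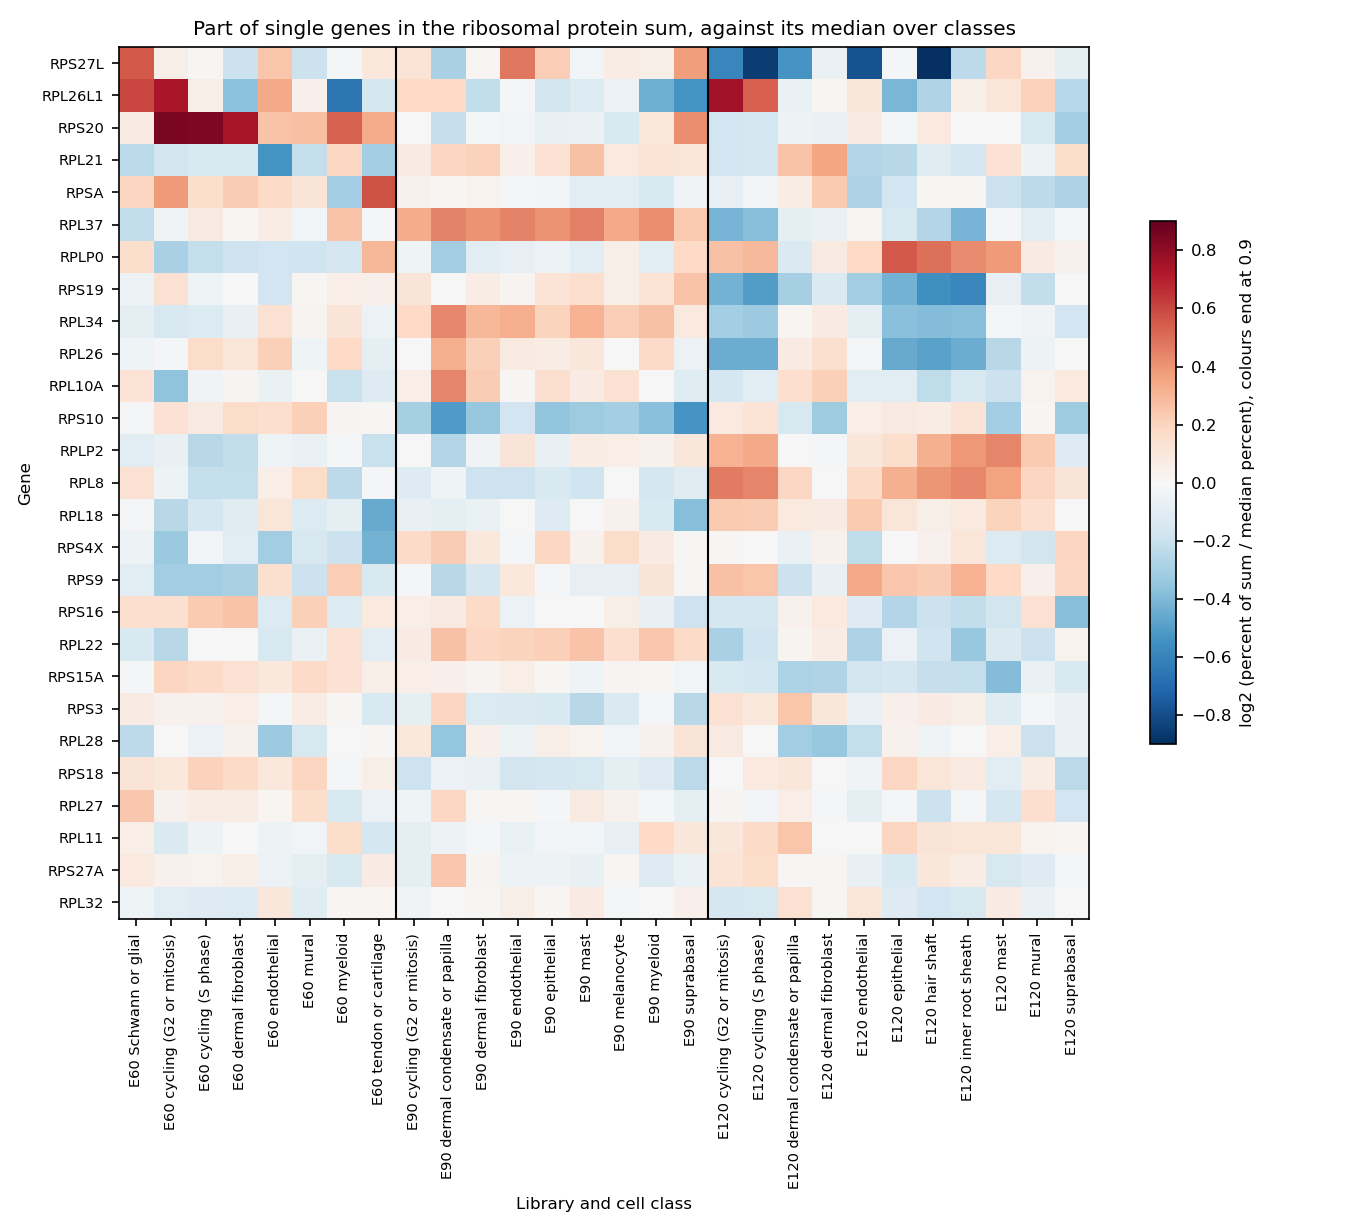
Part of single genes in the summed ribosomal protein UMIs of 28 class and library groups, as the log2 ratio to the gene's median over the groups; black lines part E60, E90 and E120 and rows are ordered by range. RPS20 is high in E60 cycling and fibroblast-like groups, RPL37 in E90 groups, and RPL8 and RPLP0 in E120 groups, while RPS19 and RPL26 are low in E120 epithelial-like, shaft-like and sheath-like cells.

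The make-up of the sum, which does not depend on other genes, varied by library and by class. Over 28 groups of at least 50 cells, and among genes with at least 0.5% of the sum, RPS20 varied most. It made up 6.86% of the sum in G2 or mitosis clusters of E60 and 3.08% in suprabasal-like cells of E120. RPL21 ranged from 1.09% in E60 endothelial-like to 2.02% in E120 dermal-fibroblast-like cells. RPSA ranged from 2.34% in myeloid-like to 4.33% in tendon- or cartilage-like cells, both of E60, so its range lay within 1 library. RPL37 made up 2.47 to 2.87% in E90 groups and 1.57 to 2.11% in E120 groups, with no overlap, and 1.80 to 2.51% at E60.

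Other genes varied among the classes of E120. RPS19 was lowest in inner-root-sheath-like cells (2.77%) and highest in suprabasal-like cells (4.17%), which thus lay apart from the other epithelial classes. RPL26 (2.69%) and RPL34 (2.36%) were lowest in hair-shaft-like cells, while their E120 maxima of 4.16 and 3.25% were in dermal-fibroblast-like cells. Suprabasal-like cells had 3.78% for RPL26, near the 3.73% of endothelial-like cells. RPLP0 was highest in E120 epithelial-like cells (6.96%) and lowest in E90 papilla-like cells (3.83%). RPS15A was the only one of the 31 genes whose E120 groups (2.68 to 3.37%) all lay below those of E60 and E90 (3.43 to 4.01%). Large-subunit genes gave 42.6, 46.4 and 45.5% of the summed UMIs at the 3 stages. RPS20, a small-subunit gene, held 6.36% of the sum at E60, against 3.79% at E90 and 3.73% at E120.

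The other genes that make and serve ribosomes differed by list. Of 18 ribosome biogenesis genes tested, 10 were at least 2-fold higher at E120 than at E90 (9.99% of all genes) and none lower (24.2%), with a median log2 ratio of 1.11. FBL, the methyltransferase of small nucleolar RNPs, was at 172 and 437 CPM, and DKC1, the pseudouridine synthase, at 73.5 and 215 CPM. Against E60, 10 of 18 were also higher (19.4% of all genes), with a median of 1.02. Between E60 and E90, 0 of 14 passed 2-fold in either direction (21.3% of all genes higher, 8.08% lower), with a median of -0.27. Of 17 initiation factors, 4 were at least 2-fold higher at E90 than at E60, near the share of all genes (21.3%), and none lower (8.08%). At E120, 5 of 17 were higher than at E90 (9.99% of all genes) and 2 lower (24.2%), with EIF2S1 at 107 and 286 CPM and EIF4A2 at 369 and 114 CPM. Of 42 mitochondrial ribosomal protein genes, 9 were higher at E120 than at E90 (9.99% of all genes) and none lower (24.2%), with a median of 0.74. Of 10 other genes with a pyrimidine tract, 1 passed 2-fold in each pair of stages, each time lower at the later stage. This was VIM, a filament gene of mesenchyme, at 24372, 4160 and 693 CPM, while PABPC1 and EEF1A1 did not pass. Of all genes, 8.08% were lower at E90 than at E60, 24.2% at E120 than at E90 and 21.5% at E120 than at E60.

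Within E120, biogenesis genes were set against all genes tested in the same classes. In papilla-like cells 16 of 18 were below 0, with a median of -1.05 against 0.22 for all genes, and NOP56 was at 151 against 370 CPM. In suprabasal-like cells 16 of 18 were below 0, with a median of -0.80 against 0.10. In hair-shaft-like cells, where the ribosomal protein share was the highest of the named classes, 9 were above 0 and 9 below. Their median was 0.00 against -0.26 for all genes, and FBL was at 344 against 478 CPM. In G2 or mitosis clusters, where the share was lower than in other cells, 17 of 18 were above 0 with a median of 0.40 against 0.21. The biogenesis sum was 2152 CPM there against 1528 CPM. In the matching E60 clusters, 12 of 13 were below 0 with a median of -0.19 against 0.12.

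RPS27A, which is made as a fusion with ubiquitin, was at 8794, 7370 and 9632 CPM at E60, E90 and E120. The rule left out some rows next to the set. A row that joins RPL17 to its neighbour was at 2953, 4024 and 2971 CPM, and a second RPL21 row at 54.9, 59.6 and 63.6 CPM. With the rows left out added to the sum, the log2 ratios of the share were -0.18 for E90 over E60, 0.29 for E120 over E90 and 0.11 for E120 over E60.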

How the data were processed

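Single-cell RNA was measured in 3 libraries, 1 per stage. The deposited values are natural log values: per the values themselves, the authors scaled each cell to 10000 and took the natural log of 1 plus the result. Cell Ranger 3.0.2 was used, per the submitters' processing notes; genome build, annotation and filters on cells are not given in the sources used here. Taking the smallest value of each cell as 1 UMI gave whole UMI counts for 100% of values within a tolerance of 0.01. Totals were 65049552, 30277663 and 93403291 UMIs at E60, E90 and E120. The count model of replicated data was not used, and no p-value is given.

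Each library was clustered with the 31 genes left out (2000 variable genes, 30 components, 20 neighbours, Leiden resolution 1; leidenalg 0.10.2, igraph 0.11.9, scikit-learn 1.9.0, numpy 2.4.6, scipy 1.17.1, Python 3.11.15). No doublet caller was run and no cell was removed. A cluster was named with at least 3 markers at 2 times the median of clusters in 10% of cells, or, for cycling classes, with 2 markers among its 10 leading genes. The mean log2 ratio of its markers to the median of its own library also had to reach 2, or 1 with a leading marker. Failing that, dermal fibroblast and epithelial names needed 0.5 against the median of all libraries. All dermal-fibroblast-like clusters of E60 and most epithelial-like clusters of E90 were named that way, so these names partly reflect the library. This scoring was set after the data were seen and revised, because earlier versions gave names that leading genes contradicted. The members and lists were chosen with earlier results of these data known.

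Shares are pooled UMIs over pooled UMIs. Genes needed 10 CPM in the higher group, and ratios are of CPM + 1. Named were, among genes of at least 100 CPM, the 5 largest and 5 smallest ratios per pair of stages and 3 and 3 per class, the 5 widest ranges in make-up, the copies, and the genes with the most and fewest UMIs; others were chosen after their values were seen. Some genes that this rule takes are not reported here, in the text or the figures, but stay in all sums and counts. Scripts were tested on simulated data. Alternatives changed the denominator, scaling, depth, cells, clustering, thresholds and members.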

Additional observations from a re-analysis of the deposited data

How the results depend on the processing

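The log2 ratios of the share, -0.19 for E90 over E60, 0.31 for E120 over E90 and 0.12 for E120 over E60, kept their sign in every alternative run, though only barely for E120 over E60 with equal class weights. In that order they were -0.08, 0.21 and 0.13 without mitochondrial and haemoglobin UMIs, -0.12, 0.21 and 0.10 without the 50 most abundant other genes, -0.22, 0.34 and 0.12 as medians over cells, -0.22, 0.33 and 0.11 after thinning, -0.16, 0.29 and 0.13 in cells of 1000 or more genes with no more than 10% mitochondrial UMIs, -0.21, 0.32 and 0.11 without the 6% of cells with the most UMIs, -0.18, 0.29 and 0.11 with the added symbols, and -0.08, 0.11 and 0.02 with equal class weights. Median-of-ratios scaling gave 1 gene 2-fold lower at E90 than at E60 and 3 higher at E120 than at E90, where CPM gave 0. A limit of 1.5-fold gave 2 lower at E90 than at E60, 6 higher at E120 than at E90, and 4 higher and 1 lower at E120 than at E60.

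For G2 or mitosis clusters of E60 (-0.26), E90 (-0.01) and E120 (-0.11), hair-shaft-like (0.13) and papilla-like (-0.38) cells of E120 and suprabasal-like cells of E90 (0.15), in that order, the values were -0.26, -0.04, -0.11, 0.13, -0.41 and 0.06 without mitochondrial and haemoglobin UMIs, -0.36, -0.06, -0.16, 0.18, -0.46 and 0.08 without the 50 most abundant other genes, -0.27, 0.01, -0.13, 0.12, -0.43 and 0.14 as medians over cells, -0.27, -0.01, -0.12, 0.12, -0.44 and 0.14 after thinning, -0.23, 0.02, -0.06, 0.11, -0.37 and 0.15 at resolution 0.5, -0.32, -0.01, -0.09, 0.11, -0.38 and 0.15 at resolution 2, -0.26, -0.02, -0.09, 0.11, -0.38 and 0.15 with the 31 genes kept in the clustering, -0.25, -0.03, -0.12, 0.10, -0.29 and 0.13 with cells classed by their own markers, -0.34, -0.02, -0.13, 0.13, -0.39 and 0.18 under that cell filter, -0.27, 0.00, -0.12, 0.13, -0.38 and 0.13 without the 6% of cells with the most UMIs, and -0.24, -0.04, -0.10, 0.17, -0.36 and 0.13 against named cells only, which was chosen after seeing the data. Only the E90 value of G2 or mitosis clusters changed sign, in the medians over cells, at resolution 0.5 and without the deepest cells; the cause was not tested. No paired analysis was possible because each stage was 1 library. Depth limits RPL3L, and intervals cover counting error only, so spread between fetuses is unknown.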
